A study of Mus musculus with 6 samples.

Results

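The miR-181 family was followed through small RNA libraries of extracellular vesicles (EVs) from mouse colon and from bone marrow-derived dendritic cells (BMDCs). Its members were the 7 mature arms whose names were listed for the family: mmu-miR-181a-5p, mmu-miR-181b-5p, mmu-miR-181c-5p and mmu-miR-181d-5p from the 5p side of their hairpins, and mmu-miR-181a-1-3p, mmu-miR-181a-2-3p and mmu-miR-181c-3p from the 3p side. They were chosen by name out of the 1966 miRNAs of the deposited table. All 7 had at least 1 count in some library, and 2 of them, miR-181a-5p and miR-181b-5p, passed the filter for testing, which asked for at least 10 counts in at least 3 libraries.

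There were 6 libraries, 3 of colon EVs and 3 of BMDC EVs. Colon EVs were collected from colon explants that had been kept in culture for 16 hours, a mixture of epithelial, immune, muscle and other cells. BMDC EVs came from bone marrow cells grown for 7 days in complete RPMI with GM-CSF, a cytokine that drives them toward dendritic cells and related myeloid cells. Both sources were labelled Rab27A fl/fl, which is a floxed Rab27a allele, and the labels named no Cre driver and no age. Vesicles of both were isolated by differential centrifugation. The labels give an iodixanol density gradient, of which fraction 2 was sequenced, for the colon vesicles only, whereas the study's results text names the gradient for both sources. Where the labels hold, the source and the isolation cannot be told apart in any difference below. The labels number the replicates without saying whether they came from separate animals or cultures, so p-values measure the spread between these preparations, which may be technical. In a bulk preparation, fewer vesicles from a cell type and less of a miRNA per vesicle cannot be told apart.

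Each miRNA hairpin is cut into a 5p and a 3p arm. One of them, the guide, is usually kept in the silencing complex, and the other, called the passenger, is mostly degraded. The guide pairs with target mRNAs chiefly through its seed, bases 2 to 8. In the miR-181 family the 5p arms are the usual guides. miR-181a is best known for setting the sensitivity of the T cell receptor during thymocyte development, it is needed for natural killer T cells, and it was among the first miRNAs found to favour the B cell lineage. The family is encoded in clusters of an a-type and a b-type hairpin, or of miR-181c with miR-181d.

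The 5p members are shown first because they have their seed in common, here in capitals, and differ only behind it. Sequences are RefSeq's for GRCm38.p6, read 5′ to 3′.
mmu-miR-181a-5p: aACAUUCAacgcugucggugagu
mmu-miR-181b-5p: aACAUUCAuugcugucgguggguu
mmu-miR-181c-5p: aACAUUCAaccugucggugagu
mmu-miR-181d-5p: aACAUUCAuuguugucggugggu

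Among the 1675 names of the table that matched a RefSeq mature sequence, 4 had this seed, and all of them were these members. Counting from 1 at the 5′ end and without gaps, miR-181a-5p and miR-181b-5p differed by 3 substitutions, A9U, C10U and A21G, with miR-181a-5p given first. miR-181b-5p and miR-181d-5p differed by C12U alone over their common length. miR-181a-5p and miR-181c-5p had their first 10 bases in common.

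The 3p members are shown because they tell apart hairpins that give the same 5p arm. The seed is again in capitals.
mmu-miR-181a-1-3p: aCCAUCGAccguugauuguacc
mmu-miR-181a-2-3p: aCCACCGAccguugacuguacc
mmu-miR-181c-3p: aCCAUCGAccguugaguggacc

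miR-181a-1-3p and miR-181a-2-3p differed by U5C, which lies in the seed, and by U16C. miR-181a-1-3p and miR-181c-3p shared a seed and their first 15 bases, and differed by U16G and U19G. The hairpins Mir181a-1 and Mir181a-2 are given below with both mature arms in capitals, since the 5p arm cut from them is identical and only the 3p arm shows which was the source.
Mir181a-1: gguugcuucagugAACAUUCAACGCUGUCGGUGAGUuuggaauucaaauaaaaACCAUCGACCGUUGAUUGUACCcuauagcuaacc
Mir181a-2: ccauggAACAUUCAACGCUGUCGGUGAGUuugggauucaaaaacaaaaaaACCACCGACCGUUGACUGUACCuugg

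On GRCm38, Mir181a-1 lies on the plus strand at chr1:137966455-137966541, and Mir181b-1 begins 97 bases further on, at chr1:137966639-137966718. Both overlap an exon of the long noncoding RNA A430106G13Rik and an intron of Gm4258 on the same strand, and an intron of Gm26936 on the other strand. Mir181a-2 lies on the plus strand at chr2:38852735-38852810 and Mir181b-2 at chr2:38853830-38853918, with 1019 bases between them. Both are within an intron of Nr6a1, a nuclear receptor gene on the other strand, and Mir181b-2 also overlaps an exon of Gm44144 on that strand. Mir181c at chr8:84178873-84178961 and Mir181d at chr8:84178716-84178787 are on the minus strand, 85 bases apart, in an intron of Nanos3 on the same strand.

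The deposited values were estimated counts and totalled between 173358 and 645303 per colon EV library and between 83996.6 and 178454 per BMDC EV library. Levels are given below in CPM, that is, counts per 1000000 counts of the library. A count of 3, taken as the floor, was worth 4.65 to 17.3 CPM in colon EVs and 16.8 to 35.7 CPM in BMDC EVs. The labelled sources were compared by lists of marker miRNAs. These lists were chosen with earlier results of these data known, so their match to the labels is not an independent check. As a background, 40.5% of all 220 tested miRNAs were enriched in BMDC EVs and 36.4% in colon EVs by the edgeR test used below. All 6 haematopoietic markers, such as miR-142a and miR-223, were higher in BMDC EVs, where they summed to between 167545 and 188263 CPM, against 3304 to 6908 CPM in colon EVs. All 9 epithelial markers, such as miR-192-5p and the miR-200 group, were higher in colon EVs, at 225927 to 298633 CPM in sum against 3774 to 7951 CPM, and none of either list was at 0 in either source. The 4 smooth muscle markers summed to 1182 to 1785 CPM in colon EVs and 59.1 to 169 CPM in BMDC EVs. Most of that sum was miR-143-3p, with means of 1362 and 71.0 CPM, and only 1 of the 4 was tested. Means were 46.5 and 9.92 CPM for miR-145a-5p, and 13.2 and 8.21 CPM for miR-1a-3p. miR-133a-3p ran the other way, at 0.517 CPM in colon EVs and 13.9 CPM in BMDC EVs. The 3 red cell markers summed to 0 to 51.9 CPM and 58.4 to 131 CPM, and none was tested. Mean CPM in colon EVs and BMDC EVs was 0 and 58.7 for miR-486a-5p, 23.0 and 26.8 for miR-451a, and 1.03 and 0 for miR-144-3p. The part of these markers' cells in the results below was not tested.

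The family made up a small part of both kinds of library. Its 7 members summed to 97, 51 and 41.5 counts in replicates 1, 2 and 3 of colon EVs, and to 107, 40.3 and 112 counts in the same replicates of BMDC EVs. In CPM these sums were 150, 219 and 239 for colon EVs and 842, 479 and 627 for BMDC EVs. Every BMDC EV library was therefore above every colon EV library. The family held 0.0203% ± 0.00467 (SD, n = 3) of all counts in colon EVs, against 0.0649% ± 0.0183 (SD, n = 3) in BMDC EVs, which was 3.20-fold more. This sum is a description and was not tested. Its fold depends on the scaling, since shares use library size alone. That set the median log2 fold change of all tested miRNAs at 0.64, against 0.19 with edgeR's TMM scaling used for the tests.

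miR-181a-5p, the leading guide of the family, had 55.5, 34 and 20 counts in colon EVs and 67.8, 18.8 and 60.8 counts in BMDC EVs. These were 86.0, 146 and 115 CPM in colon EVs and 535, 223 and 340 CPM in BMDC EVs. The groups did not overlap, although BMDC EV replicate 1 was well above replicate 2 of the same source. The mean was 116 ± 30.1 CPM in colon EVs, against 366 ± 157 CPM in BMDC EVs (SD, n = 3). By the quasi-likelihood test of edgeR, adjusted by the Benjamini-Hochberg method over all 220 tested miRNAs, miR-181a-5p was enriched in BMDC EVs with a log2 fold change of 1.24 (SE 0.41, 95% interval 0.38 to 2.09, adjusted p = 0.00980). Without BMDC EV replicate 1, its log2 fold change was 0.92 and its adjusted p was 0.0663 by the same test. By rank within a library it stood between 132nd and 148th in colon EVs and between 91st and 142nd in BMDC EVs.

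miR-181b-5p, which carries the same seed and is encoded beside miR-181a on chromosomes 1 and 2, had 11.5, 5 and 8.5 counts in colon EVs and 20.5, 8.5 and 28.1 counts in BMDC EVs. These were 17.8, 21.5 and 49.0 CPM against 162, 101 and 157 CPM. The lowest BMDC EV library was again above the highest colon EV library. Means were 29.4 ± 17.1 CPM in colon EVs, against 140 ± 33.7 CPM in BMDC EVs (SD, n = 3). The log2 fold change was 1.94 (SE 0.51, 95% interval 0.86 to 3.02), and the adjusted p was 0.00210 in the same edgeR fit.

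So 2 of the 2 tested members were enriched in BMDC EVs. The 0 enriched in colon EVs, also at an unadjusted p under 0.05 with edgeR and with DESeq2 or limma, followed from this. It says nothing further, since the filter had left out miR-181a-2-3p and miR-181c-5p, whose mean CPM was higher in colon EVs. The 2 calls have to be read against the whole table. In it, 40.5% of the tested miRNAs were called enriched in BMDC EVs and 36.4% were enriched in the colon. On normalised counts, every BMDC EV library was above every colon EV library for both members and for 42.7% of all tested miRNAs. The differences of the miR-181 guides were also modest within this table. Of the 89 miRNAs called higher in BMDC EVs, 10 had a smaller log2 fold change than miR-181a-5p and 22 had a smaller one than miR-181b-5p. The median log2 fold change was 3.03 over those 89 and 0.19 over all tested miRNAs.

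**Figure D1:**
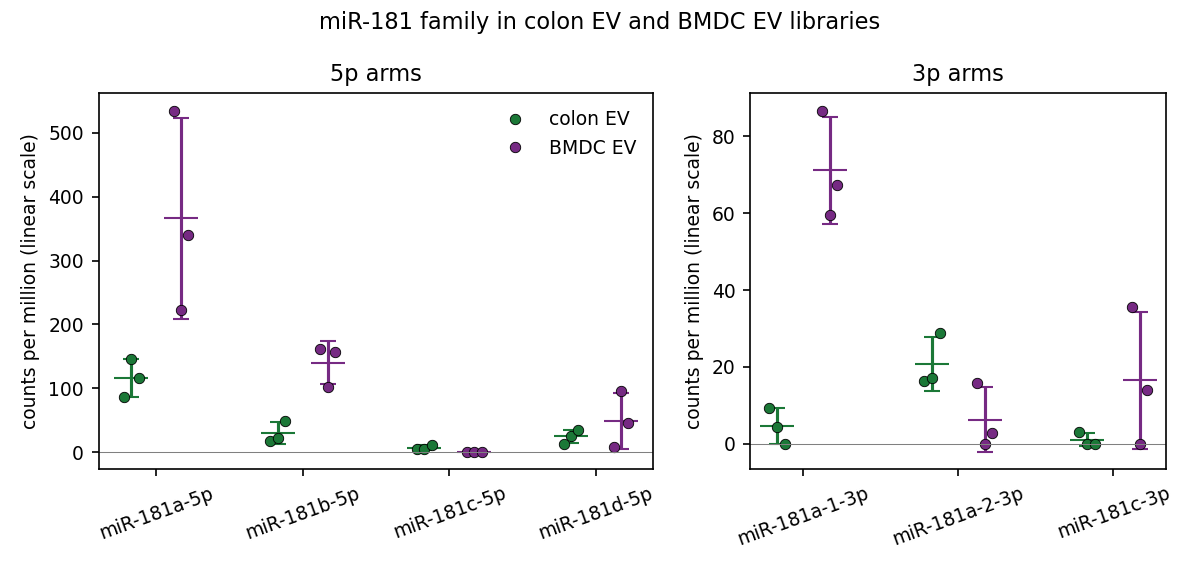
Level of each member in CPM (linear axes) for the 4 5p arms (left) and the 3 3p arms (right), with a point for each library, a line at the mean and bars of 1 SD for 3 colon EV (green) and 3 BMDC EV (purple) libraries. miR-181a-5p, miR-181b-5p and miR-181a-1-3p have every BMDC EV point above every colon EV point, and miR-181c-5p lies at 0 in all BMDC EV libraries.

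The other 5p arms, from chromosome 8, were at a few counts. miR-181d-5p had 8.5, 6 and 6 counts in colon EVs and 1, 8 and 8 counts in BMDC EVs, that is 13.2, 25.8 and 34.6 CPM against 7.89, 95.2 and 44.8 CPM. The BMDC EV libraries were on both sides of the colon EV libraries, replicate 1 being the lowest of all 6. Without a count filter, its log2 fold change was 0.12 with a 95% interval of −1.52 to 1.76 and an adjusted p of 0.912 by edgeR's quasi-likelihood test, an interval that holds changes in both directions. The scaling of that fit differs from that of the folds above. It set the median log2 fold change of the 220 tested miRNAs at −0.30, against 0.19 with the filter. In CPM the means of miR-181d-5p were 24.5 ± 10.8 in colon EVs and 49.3 ± 43.9 in BMDC EVs (SD, n = 3). miR-181c-5p had 3, 1 and 2 counts in colon EVs, or 4.65, 4.30 and 11.5 CPM, and 0 counts in each BMDC EV library. Its colon EV counts were at or under the floor of 3 counts, as were those of BMDC EVs, and no fold is given.

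Among the 5p counts, miR-181a-5p held the largest share in every library of both sources. It made up 66.5% ± 10.2 (SD, n = 3) of the 5p counts in colon EVs, against 64.0% ± 11.4 (SD, n = 3) in BMDC EVs, with ranges of 54.8 to 73.9% and 53.2 to 75.9% that overlapped. The share of miR-181b-5p was 16.3% ± 6.37 in colon EVs, against 25.4% ± 3.21 in BMDC EVs (SD, n = 3), and its ranges, 10.9 to 23.3% and 22.9 to 29.0%, overlapped narrowly. miR-181d-5p held 13.4% ± 2.83 and 10.7% ± 11.0 (SD, n = 3), and the 3 BMDC EV libraries ran from 1.12 to 22.7%. Its mean in BMDC EVs rested on single libraries, being 15.5% without BMDC EV replicate 1, which is above the colon EV mean, and 4.69% without BMDC EV replicate 2. miR-181c-5p held 3.83% ± 1.65 (SD, n = 3) in colon EVs. Its 0 counts in BMDC EV replicates 1, 2 and 3 allow a share of up to 3.36%, 8.51% and 3.10% there, so its absence was not shown at this depth.

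**Figure D2:**
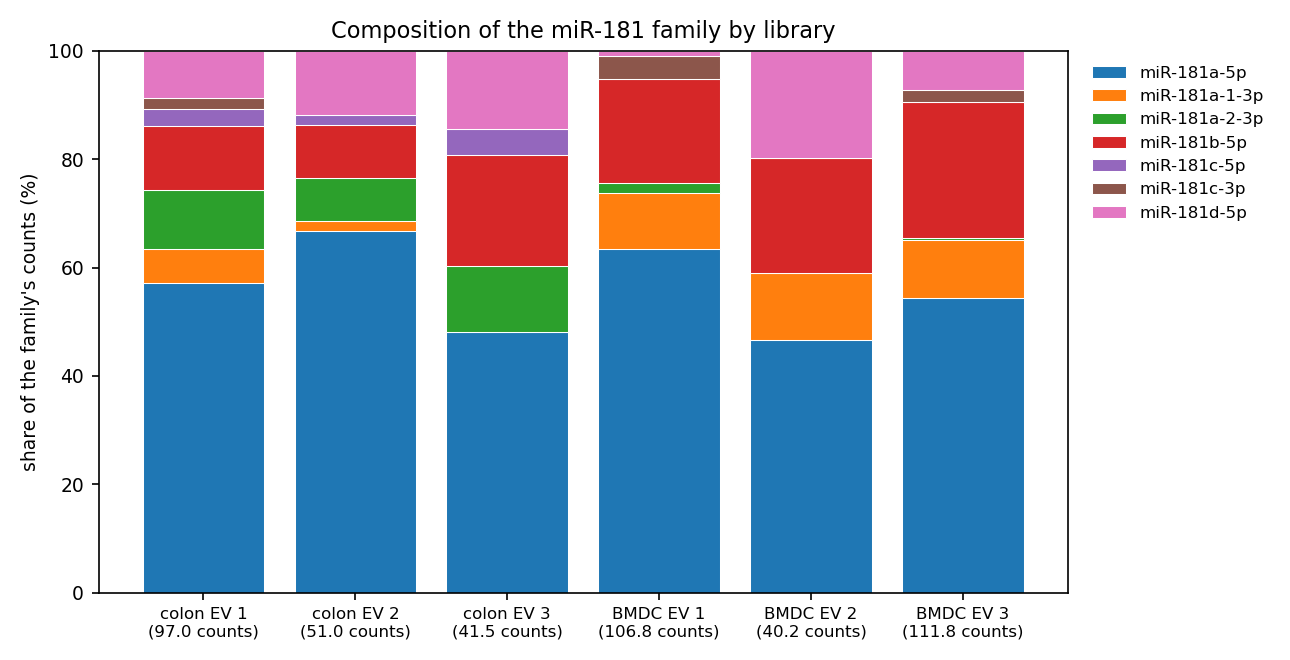
Share of the family's counts (%) held by each of the 7 members in each library, as stacked bars that reach 100%, with the family's counts in that library written under each bar. miR-181a-5p (blue) is the largest part of all 6 bars, while miR-181a-2-3p (green) takes more of each colon EV bar and miR-181a-1-3p (orange) more of each BMDC EV bar.

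Whether the guides moved apart from each other was tested with edgeR's test of differential usage within groups of miRNAs that share a seed. After the count filter the group held miR-181a-5p and miR-181b-5p alone. Relative to these 2 arms together, the log2 difference of miR-181a-5p was −0.11 (adjusted p = 0.859 in this edgeR model) and that of miR-181b-5p was 0.37 (adjusted p = 0.541 in this edgeR model). The edgeR test called 0 of the 2 members, and 0 had an unadjusted p under 0.05. Over all 63 miRNAs of seed groups with at least 2 tested members, 31.7% were called. Without the filter, 6 members entered this test, all 4 5p arms among them, and edgeR again called 0, with 1 at an unadjusted p under 0.05. That one was miR-181c-5p, at 0 counts in every BMDC EV library, with an adjusted p of 0.0759 in the edgeR model. No shift among the 5p arms passed the test at this depth, which does not show that their make-up was the same.

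The part that passenger arms took of miR-181a overlapped between the sources. Of all miR-181a counts, both 3p arms together held 22.9%, 12.8% and 20% in replicates 1, 2 and 3 of colon EVs. In BMDC EVs they held 16.1%, 21.1% and 17.1%. The means were 18.6% ± 5.20 and 18.1% ± 2.63 (SD, n = 3; exact two-sided permutation test, p = 1.0, the smallest that 3 against 3 allows being 0.1). Which mean was higher turned when 1 library was left out, as with 16.4% in colon EVs without replicate 1 or 19.1% in BMDC EVs without replicate 1. Over the whole family, all 3p arms held 13.6% ± 4.84 of the counts in colon EVs and 14.1% ± 2.06 in BMDC EVs (SD, n = 3). A passenger share of this size was not usual in these libraries. Among the 98 hairpin names with at least 20 counts in every library, the less abundant side held a median of 2.48% of the counts. miR-181a was at 18.3%, and 8 names were higher.

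In CPM, the levels of the 2 miR-181a passengers lay apart between the sources, in opposite directions. miR-181a-1-3p, cut from the hairpin on chromosome 1, had 6, 1 and 0 counts in colon EVs and 11, 5 and 12 in BMDC EVs, or 9.30, 4.30 and 0 CPM against 86.7, 59.5 and 67.2 CPM. In CPM all 3 BMDC EV libraries were above all 3 colon EV libraries, which were at or under the floor in replicates 2 and 3. The counts themselves overlapped, 6 in colon EV replicate 1 being above 5 in BMDC EV replicate 2. For scale, 42.7% of the tested miRNAs had every BMDC EV library above every colon EV library on normalised counts. Neither passenger was among those tested, which had reached at least 10 counts in at least 3 libraries. miR-181a-2-3p, cut from the hairpin on chromosome 2, had 10.5, 4 and 5 counts in colon EVs and 2, 0 and 0.5 in BMDC EVs, or 16.3, 17.2 and 28.8 CPM against 15.8, 0 and 2.80 CPM. It ran the other way without overlap, but BMDC EV replicate 1, at 15.8 CPM, lay just under the lowest colon EV library, and all BMDC EV libraries were under the floor. For scale in that direction, 36.4% of the tested miRNAs were called higher in colon EVs.

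As a share of both miR-181a 3p arms, miR-181a-1-3p was 36.4% in colon EV replicate 1 (6 of 16.5 counts, Wilson 95% interval 18.5 to 61.4%) and 20% in replicate 2 (1 of 5 counts, 3.62 to 62.4%). In replicate 3 it was 0 of 5 counts, with a Wilson upper limit of 43.4%, while the floor of 3 counts in those 5 allows a share of up to 60.0%. In BMDC EVs the share was 84.6% in replicate 1 (11 of 13 counts, 57.8 to 95.7%), 100% in replicate 2 (5 of 5 counts, 56.6 to 100%) and 96.0% in replicate 3 (12 of 12.5 counts, 75.8 to 100%). Every BMDC EV library was above every colon EV library, but the intervals of single libraries overlapped, as in colon EV replicate 1 and BMDC EV replicate 1. These intervals cover counting error only, since reads may not be independent molecules. The means were 18.8% ± 18.2 in colon EVs and 93.5% ± 7.98 in BMDC EVs (SD, n = 3), a difference of 74.8 percentage points. Without colon EV replicate 1, which held 6 of the 7 colon EV counts of miR-181a-1-3p, the colon EV mean was 10%. The exact two-sided permutation test gave p = 0.1, which is the smallest it can give with 3 libraries against 3, so this design cannot pass 0.05.

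**Figure D3:**
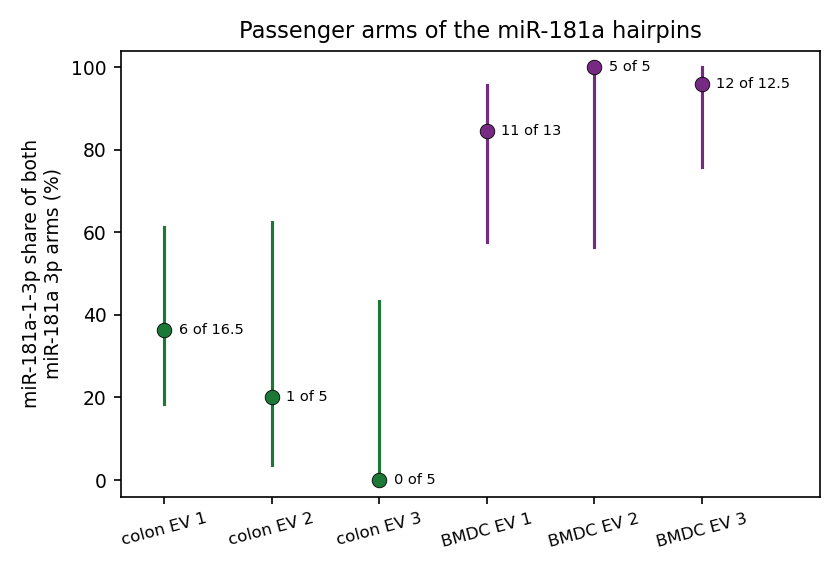
Share of miR-181a-1-3p in the counts of both miR-181a 3p arms (%) in each colon EV (green) and BMDC EV (purple) library, with bars for the Wilson 95% interval and the counts written beside each point. The colon EV points lie between 0 and 36.4% and the BMDC EV points between 84.6% and 100%, on 5 to 16.5 counts per library.

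Few other miRNAs allowed the same comparison. There were 5 miRNAs with 2 numbered copies of one arm, both seen and with at least 1 count of the pair in all 6 libraries. In 3 of these 5, or 60.0%, the share of the first copy did not overlap between the sources, so the separation in miR-181a was not particular to it. Besides miR-181a they were miR-30c, whose first copy miR-30c-1-3p held 15.9% ± 14.1 in colon EVs and 92.0% ± 13.9 in BMDC EVs (SD, n = 3), and miR-194, whose first copy miR-194-1-3p held 12.9% ± 4.86 and 0%. In BMDC EVs the mean normalised count of miR-194-1-3p was 0 and that of miR-194-2-3p was 11.8, so that 0% rests on few counts. In miR-29b and miR-365 the sources overlapped.

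No passenger arm passed the count filter, so 0 members could enter the test of arm usage within a hairpin name as filtered. Without the filter, 6 members were tested. edgeR's usage test called 0 of them, while 2 would pass at an unadjusted p under 0.05. For miR-181a-2-3p the relative log2 difference was −2.37 (adjusted p = 0.196 with edgeR). For miR-181a-1-3p it was 1.19 (adjusted p = 0.590 with edgeR), and for miR-181c-5p, which with miR-181a-2-3p made up the 2, the adjusted p was 0.496. Over all 437 arms tested in this way, 2.75% were called. In the comparison of levels without any filter, miR-181a-1-3p had a log2 fold change of 2.43 (SE 0.93, adjusted p = 0.0305 by edgeR's quasi-likelihood test). The share of all miRNAs called without a filter was not counted, so that call stands without a background. miR-181a-2-3p, whose BMDC EV counts were all under the floor, was at −2.69 (SE 1.33) in the same edgeR fit. It was not called there (unadjusted p = 0.0427, adjusted p = 0.116 by edgeR's quasi-likelihood test). In this fit the median log2 fold change of the 220 miRNAs was −0.30, against 0.19 with the filter.

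miR-181c-3p, which shares a seed with miR-181a-1-3p, had 2, 0 and 0 counts in colon EVs and 4.5, 0 and 2.5 counts in BMDC EVs, and 3 of the 6 libraries were at 0. The other arms of these hairpins in the table were hardly seen. miR-181b-1-3p had 1 count in BMDC EV replicate 3 and 0 elsewhere, and miR-181b-2-3p and miR-181d-3p had 0 counts in all 6 libraries. Summed by locus, the 3p arms of chromosome 1 were at 4.53 ± 4.65 CPM in colon EVs and 73.0 ± 13.6 CPM in BMDC EVs, and that of chromosome 2 at 20.8 ± 7.01 and 6.19 ± 8.41 CPM (SD, n = 3). The chromosome 8 arms, 5p and 3p together, were at 32.4 ± 12.8 and 65.8 ± 26.6 CPM (SD, n = 3), from 7 to 13.5 counts per colon EV library and 5.5 to 10.5 per BMDC EV library. The 5p counts of miR-181a and miR-181b cannot be divided between chromosomes 1 and 2, since both loci give the same sequence.

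How reads that match more than 1 arm were divided bears on these values. Of the 34 member values above 0, 14 were not whole numbers, among them 4 of 6 for miR-181a-5p and 5 of 6 for miR-181b-5p. All values of miR-181a-1-3p and miR-181c-5p were whole. Levels of the members that differ by 1 to 3 substitutions, such as miR-181b-5p and miR-181d-5p, are uncertain to that extent.

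Other miRNAs known for their part in immune cell development give the scale of these levels. Of a list of 10, BMDC EVs had 9 at a higher level and colon EVs had 1, against 40.5% and 36.4% of all tested miRNAs. The median log2 fold change of the list was 3.50, against 0.19 over all tested miRNAs. With DESeq2's size factors, 8 were higher in BMDC EVs, miR-20a-5p being lost at a log2 fold change of 0.67 and an adjusted p of 0.0901 with edgeR. miR-155-5p, which is induced in activated dendritic cells, was 24.6 times the level of miR-181a-5p in CPM in colon EVs and 348 times in BMDC EVs. Nearest in level to miR-181a-5p in colon EVs were miR-17-5p and miR-20a-5p, both of the miR-17-92 cluster that favours lymphocyte survival. They were at 128 ± 11.0 and 212 ± 57.6 CPM in colon EVs, and at 591 ± 191 and 521 ± 40.6 CPM in BMDC EVs (SD, n = 3). Their log2 fold changes were 1.69 (SE 0.37, adjusted p = 0.000388) and 0.79 (SE 0.35, adjusted p = 0.0496) by edgeR's quasi-likelihood test. The listed miRNA that was higher in colon EVs was miR-125b-5p, at 1101 ± 235 CPM against 244 ± 33.1 CPM (SD, n = 3), with a log2 fold change of −2.65 (adjusted p = 2.62e-07 by edgeR's quasi-likelihood test). In BMDC EVs miR-125b-5p, at 0.67 times the level of miR-181a-5p, was nearer to it than miR-17-5p, at 1.61 times.

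**Figure D4:**
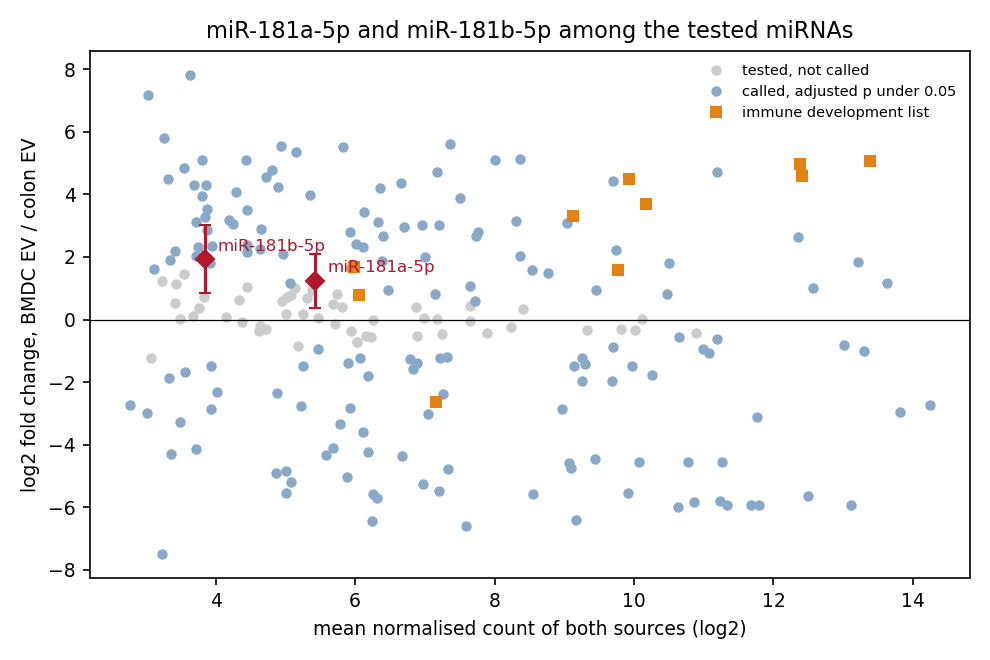
Log2 fold change of BMDC EVs over colon EVs against the mean normalised count of both sources (log2) for all 220 tested miRNAs, with called miRNAs in blue, the immune development list as orange squares and the 2 tested members as red diamonds with 95% intervals. Both members lie above 0, at 1.24 and 1.94, with low counts and below most of the list.

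The tested miRNAs whose pattern over the 6 libraries was most like that of miR-181a-5p were miR-92a-3p, miR-25-3p and miR-361-5p. The measure was the root mean square difference of log2 normalised counts, each profile centred on its own mean, and it was 0.31, 0.33 and 0.37 for these miRNAs against a median of 1.23 over the others tested. For miR-181b-5p it was 0.55. Their levels were higher than that of miR-181a-5p, miR-92a-3p running from 1434 to 2466 CPM in colon EVs and from 6422 to 10942 CPM in BMDC EVs. The log2 fold change of miR-92a-3p was 1.598, that of miR-25-3p 0.94 and that of miR-361-5p 0.82.

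Both tested members kept a positive log2 fold change in every setting tried, from 0.74 to 1.70 for miR-181a-5p and from 1.41 to 2.39 for miR-181b-5p. Without a count filter neither passed, with adjusted p-values of 0.177 and 0.0640 by edgeR's quasi-likelihood test. In that fit the TMM scaling over all counted miRNAs set the median log2 fold change of the 220 miRNAs at −0.30, against 0.19 with the filter.

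**Figure D5:**
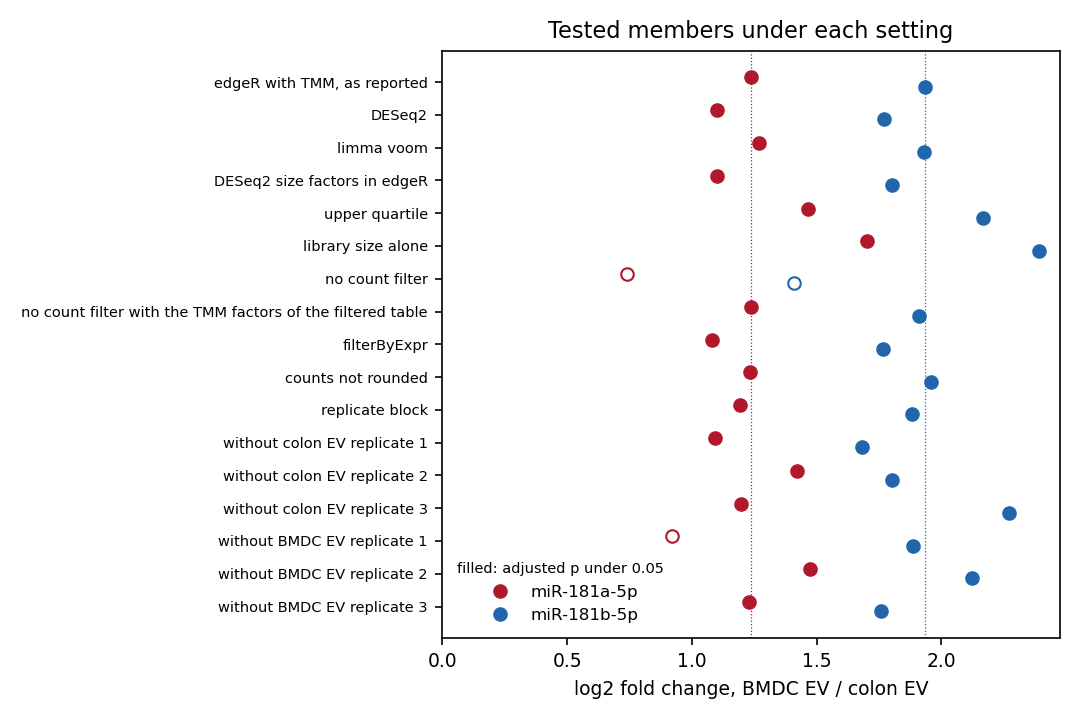
Log2 fold change of BMDC EVs over colon EVs for miR-181a-5p (red) and miR-181b-5p (blue) under each setting, with filled points for an adjusted p under 0.05, open points otherwise and dotted lines at the reported values. All points lie above 0, and the open points are those of both members without a count filter and of miR-181a-5p without BMDC EV replicate 1.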

How the data were processed

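Small RNA libraries of mouse EVs were made with the QiaSeq miRNA kit, 3 from colon explants and 3 from BMDCs, and grouped by their labels. The deposited values are the authors' estimated counts for each mature miRNA, which are not normalised and need not be whole, and 0 columns of the table belonged to other samples. The submitters' processing notes name STAR 2.7.6a, featureCounts 1.6.3, DESeq2 1.30.1 and GRCm38. Their options, the miRNA annotation, the sharing of reads between similar miRNAs and the use of molecular identifiers are not given in the sources used here, so intervals and floors cover counting error only.

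Shares and CPM used the counts as deposited. For tests, counts were rounded to whole numbers and miRNAs that reached 10 counts in 3 or more libraries were kept, 220 in all. In R 4.3.3, sources were compared with edgeR 4.0.16 (TMM, quasi-likelihood test, no block), with Benjamini-Hochberg adjustment over all tested miRNAs, and called at an adjusted p under 0.05. Positive log2 fold changes mean higher in BMDC EVs. Usage within seed groups and within hairpin names, copies pooled, was tested with edgeR's diffSpliceDGE. Group shares were compared by exact permutation tests in SciPy 1.17.1, and shares of single libraries carry Wilson 95% intervals from rounded counts. Scripts were tested on simulated data. Likeness of profiles used log2 of normalised counts plus 0.5.

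Alternatives were DESeq2 1.42.0, limma 3.58.1 with voom, other scalings, other count filters, unrounded counts, the replicate block and leaving out each library. All members were described, with the other arms of their hairpins and the 3 tested miRNAs most like the most abundant member. From the immune list, those nearest to that member in level in colon EVs were described together with the extremes. The members and lists were chosen with earlier results of these data known. miR-125b-5p, miR-155-5p and the other miRNAs with numbered copies were named after their values were seen. Replicates of a source differed by more than sampling noise (chi-square per degree of freedom of 6.25 to 68.4, no p-value taken), so no library was a copy of another. This does not show whether they came from the same preparation. Same-numbered libraries did not deviate together (correlations of −0.145 to −0.0596 over 3 pairs), and the number is not known to pair them. Sequences and hairpin positions were matched by name to RefSeq on GRCm38.p6, and gene parts to GENCODE vM21.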

Additional observations from a re-analysis of the deposited data

How the results depend on the processing

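The number of members enriched in BMDC EVs, 2 as reported, was 1 without a count filter, where miR-181a-5p (log2 fold change 0.74, adjusted p = 0.177 with edgeR) and miR-181b-5p (1.41, adjusted p = 0.0640 with edgeR) did not pass and miR-181a-1-3p did. It was 1 to 2 when a library was left out, the 1 being without BMDC EV replicate 1, where miR-181a-5p was at 0.92 (adjusted p = 0.0663 with edgeR). It was 3 with edgeR's own filter, where the added member, miR-181a-1-3p, had entered through its BMDC EV counts and so had to differ. It was also 3 in an alternative chosen after seeing the data, no filter with the TMM factors of the filtered table, in which miR-181a-5p was at 1.24 (adjusted p = 0.00783 with edgeR) and miR-181b-5p at 1.91 (adjusted p = 0.00750 with edgeR). Of all tested miRNAs, 40.5% were called higher in BMDC EVs in the reported fit, and this share was not counted under the other filters. miR-181a-5p and miR-181b-5p were called by DESeq2 as well, at 1.10 (adjusted p = 0.0197) and 1.77 (adjusted p = 0.0118). The replicate block left the calls as they were, at 1.19 (adjusted p = 0.0245 with edgeR) and 1.88 (adjusted p = 0.00831 with edgeR), with 0 members higher in colon EVs and 0 of the seed group called. The scalings moved the median log2 fold change of all tested miRNAs from 0.19 to 0.06 with DESeq2's size factors, 0.39 with the upper quartile and 0.64 with library size alone, and both members were called under each. Against the 5p arm alone, miR-181a-1-3p held 4.20% in colon EVs and 17.2% in BMDC EVs. By the same measure, miR-181a-2-3p held 15.5% in colon EVs and 1.23% in BMDC EVs. Both 3p arms together held 18.6% and 18.1%, so the share fell far only where the scarcer arm of that source was counted. The share of miR-181a-1-3p in both 3p arms ran from 10 to 28.2% in colon EVs and from 90.3 to 98.0% in BMDC EVs when a library was left out. The test of arm usage without a filter, with each library left out in turn (also chosen after seeing the data), called 0 members. No log2 fold change of the 2 tested members reversed, but the order of the source means turned with 1 library left out for the share of miR-181d-5p (15.5% in BMDC EVs without replicate 1), of miR-181a-5p (62.7% in colon EVs without replicate 2, 69.3% in BMDC EVs without replicate 2) and of both 3p arms. Depth limits the passenger arms most, at 5 to 16.5 counts of both miR-181a 3p arms per library, and miR-181c, whose arms were mostly at or under the floor of 3 counts.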
